A study of Arabidopsis thaliana with 27 samples.

Results

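The comparison described here is that of *opr3* stamens 2 h after jasmonate with untreated *opr3* stamens of *Arabidopsis thaliana*, 6 of the 27 arrays of the study. The members were chosen by label: 3 arrays titled JA 2 h and 3 arrays titled 0 h, with all 22810 probe sets of the ATH1 array. The *opr3* mutant lacks the reductase that carries the precursor 12-oxo-phytodienoic acid (OPDA) on towards jasmonic acid (JA). All 6 arrays carry this mutation, and plants grew on soil in continuous light at 22 °C. In the JA 2 h group, *opr3* buds of stage 12 received 0.03% methyl jasmonate, which the titles call JA, and stamens were frozen 2 h later. The untreated group was labelled as untreated stamens, with no bud stage and no mock treatment given, so the change also holds handling and time since treatment. The third JA 2 h array is titled *opr2*, but its treatment label names *opr3* mutants, and it was kept. Other arrays of the study were *opr3* stamens at 0.5, 8 and 22 h after JA, *opr3* stamens at 0.5, 2, 8 and 22 h after OPDA, and 1 array of wild-type Ws stamens. Whether replicates are separate plants or batches of plants is not labelled, so the spread that the p-values rest on may be technical.

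Jasmonates are lipid-derived hormones that plants make after wounding and during flower development. Binding of the active conjugate JA-Ile to its receptor leads to destruction of JAZ repressors, which frees transcription factors such as MYC proteins to act. In stamens the hormone is required for filament elongation, anther opening and the release of viable pollen, and *opr3* plants are male sterile unless jasmonate is supplied.

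Signals on the 6 arrays were alike in scale, with medians between 51.5 and 55.9 and between 50.7% and 52.7% of probe sets at a signal of at least 50. Of the 6 floral identity markers used to check the labelled organ, 0 had a named probe set. SPL, a regulator needed to form pollen sacs, averaged 58.4 ± 24.6 on JA 2 h arrays, against 99.7 ± 34.2 on untreated arrays (SD, n = 3 each), and was not called (limma adjusted p = 0.59). All 8 pollen markers had a named probe set, and their summed signal was 4398.3 to 6070.9 on JA 2 h arrays, against 4113.9 to 5585.7 on untreated arrays. Of these, 0 of 8 were called by limma and 0 had an unadjusted p under 0.05, against 2.22% and 9.53% of all tested probe sets. Of other tissues, 3 of 6 green tissue markers summed to 1709.3 to 1987.1 on JA 2 h arrays, against 1815.7 to 2042.5 on untreated arrays, and 1 of these, LHCB4.2, was called lower. The tapetal gene ATA27 (1 of 7 markers) read 311.4 to 633.2 on JA 2 h arrays, against 149.9 to 655.2 on untreated arrays. For each of these 3 lists the ranges of the groups overlapped. The ovule gene INO (1 of 6) lay at 34.9 to 70.7 on JA 2 h arrays, against 39.8 to 54.3 on untreated arrays. The petal gene RBE (1 of 3) lay at 8.7 to 35.5 on JA 2 h arrays, against 10.6 to 16.6 on untreated arrays. No marker was at 0, and their part in the results was not tested. JA 2 h arrays correlated with each other at 0.964 to 0.972 over tested probe sets. Untreated replicate 3 correlated at 0.962 with JA 2 h replicate 3, which was scanned on the same day, against 0.946 and 0.954 with untreated replicates 1 and 2.

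Which stamen transcripts had a different level 2 h after JA was tested over the 14028 probe sets that reached a signal of 50 on 2 or more arrays of the series. Changes are differences of log2(signal + 16), which understates the change of dim genes, and a probe set was called at a limma adjusted p under 0.05. In bulk stamens, fewer cells of a type and less RNA per cell cannot be told apart. In all, 312 probe sets were called, 2.22% of those tested, with 280 higher (2%) and 32 lower (0.228%). Of the rises, 177 were at least 2-fold and 47 at least 4-fold, with a median log2 change of 1.14. Of the falls, 6 were at least 2-fold and 0 at least 4-fold, with a median of -0.69. The median change of all tested probe sets was -0.06, and the median 95% interval reached 0.37 to either side. Called or not, 14.5% of tested probe sets had groups whose 3 arrays did not overlap. Without JA 2 h replicate 3, the array titled *opr2*, 215 were called higher and 26 lower.

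**Figure D1:**
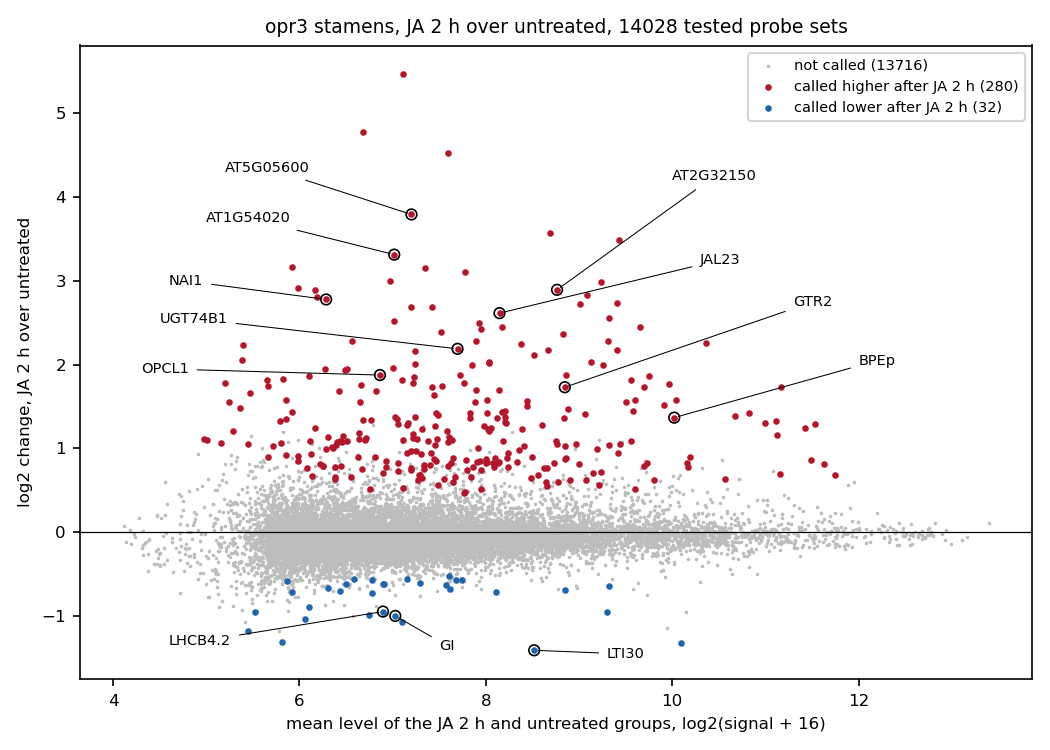
Each point is 1 of 14028 tested probe sets, with the mean level of the JA 2 h and untreated groups on the horizontal axis and the log2 change, JA 2 h over untreated, on the vertical axis. Rises reach 5.46 and falls -1.41, and the 280 called rises lie at low, middle and high levels.

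Many rises started from a dim signal. The untreated mean was under 50 for 68 of the 280, and 34 of these had a JA 2 h mean of at least 100. At the other end, 26 of the rises had an untreated mean of at least 500. In 4 equal classes of mean signal, dimmest first, 46, 43, 83 and 108 probe sets were called higher and 7, 10, 9 and 6 lower. The 64 tested probe sets of plastid-encoded genes had 0 calls by limma, and 0 had an unadjusted p under 0.05. Of all tested probe sets, 2.22% were called and 9.53% had an unadjusted limma p under 0.05. Only 102 of the rises and 17 of the falls were paired with exactly 1 gene, so most changed probe sets have no gene name here. The largest rise of all, 257220_at, is among those with no gene: it averaged 897 ± 71.7 after JA, against 4.97 ± 4.46 untreated (SD, n = 3 each), a log2 change of 5.46. The next, 254809_at, averaged 523.4 ± 105.6 after JA, against 3.6 ± 3.14 untreated (SD, n = 3 each), a change of 4.78.

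Among genes of jasmonate metabolism, both an enzyme that removes the hormone and one that makes it rose. AT5G05600, known as JOX2, encodes an oxygenase that hydroxylates JA to an inactive form. Its signal was 518.1, 470.3 and 548.5 on the JA 2 h arrays, against 5.8, 29.1 and 40.3 on the untreated arrays. The groups lie far apart, and the log2 change was 3.79 (95% interval 3.22 to 4.36; limma adjusted p = 4.2e-09), the largest among probe sets paired with 1 gene that the naming rule took. OPCL1 (AT1G20510), a CoA ligase that activates a JA precursor for side-chain shortening in the peroxisome, read 224.0, 192.8 and 202.3 after JA, against 35, 53.9 and 46.2 untreated. Its change was 1.87 (1.49 to 2.26, limma adjusted p = 6.8e-07). Every JA array was above every untreated array, as the naming rule required.

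Other genes of the pathway with a named probe set were not called. JMT, which methylates JA, averaged 298 ± 96.8 after JA, against 148 ± 67.9 untreated (SD, n = 3 each), with overlapping arrays and a log2 difference of 0.98 (limma adjusted p = 0.24). JRG21, a gene named for its regulation by jasmonate, is the 1 tested member of the JA catabolism list. It averaged 36.9 ± 10.9 after JA, against 11.9 ± 5.08 untreated (SD, n = 3 each). Its arrays did not overlap, and the difference of 0.92 missed the threshold (limma adjusted p = 0.086). Both JA means were the higher, and neither difference was called. MYC3, one of the transcription factors bound by JAZ repressors, averaged 61.3 ± 4.71 after JA, against 59.2 ± 3.65 untreated, a difference of 0.04 with an interval of -0.33 to 0.40. The regulator ORA47 was dim in both groups, at 21.9 ± 13.1 after JA, against 9.33 ± 6.12 untreated, a difference of 0.55 (limma adjusted p = 0.68). Both regulators' arrays overlapped between the groups. The defence thionin THI2.1, a classical jasmonate marker of leaves, averaged 858 ± 171 after JA, against 387 ± 46.9 untreated. Its groups did not overlap, yet the difference of 1.11 was not called (limma adjusted p = 0.15). In the lists, JA synthesis thus had 1 of 2 tested members called higher, where 2% of all tested probe sets were. The list of JA and wound markers, to which THI2.1 belongs, had 1 of 3, the lectin gene JAL23. The lists of JA catabolism, JA perception and JA-responsive regulators had 0 of 1 each, AT5G05600 having no symbol and standing outside them. Lists this small say little beside that share. Most genes of the core pathway, the JAZ repressors among them, were not named on the array by the annotation used and are not analysed here.

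A second group of rises belongs to ER bodies and glucosinolates, the sulphur-rich defence compounds of the cabbage order. ER bodies are compartments of the endoplasmic reticulum that store beta-glucosidases. NAI1 (AT2G22770), the bHLH transcription factor needed to form them, read 259.0, 189.4 and 125.4 after JA, against 11.1, 10.4 and 18.7 untreated. The gene was near the bottom of the scale on all untreated arrays, and its log2 change was 2.78 (2.19 to 3.37; limma adjusted p = 1.1e-06). JAL23 (AT2G39330), a jacalin-related lectin of the ER body set, read 749.5, 485.7 and 713.2 after JA, against 39.5, 98.4 and 176.4 untreated, a change of 2.61 (limma adjusted p = 1.6e-05). A related lectin, JAL33, averaged 20.3 ± 10.6 after JA, against 39.4 ± 4.43 untreated (SD, n = 3 each), with a difference of -0.65 that was not called (limma adjusted p = 0.52). In the ER body list 2 of 3 tested members were thus called higher, where 2% of all tested probe sets were. The gene lists were chosen with earlier results of these data known, so such counts are a description, here and for the other lists.

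In glucosinolate synthesis, UGT74B1 (AT1G24100) adds the glucose that gives these compounds their name. Its signal was 538.0, 362.1 and 377.2 after JA, against 55.5, 96.8 and 92.0 untreated. The change was 2.19 (1.76 to 2.62, limma adjusted p = 3.7e-07), with no overlap of arrays, as the naming rule required. GTR2 (AT5G62680), a transporter that moves glucosinolates across the plasma membrane, read 663.1, 768.7 and 960.9 after JA, against 152.1, 193.5 and 389.1 untreated. It rose by 1.73 (1.09 to 2.37; limma adjusted p = 0.0014), while its paralogue GTR1 averaged 67.6 ± 11.1 after JA, against 49.5 ± 7.11 untreated, a difference of 0.35 that was not called (limma adjusted p = 0.44). Whether the changes of GTR2 and GTR1 differ was not tested. In the glucosinolate list 3 of 8 tested members were called higher and 0 lower (2% and 0.228% of all tested), the third being NAI1, which also stands in the ER body list. The list's median change was 0.33, beside -0.06 over all tested probe sets.

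Sulphate assimilation supplies the sulphur of these compounds. APS3 (AT4G14680), an ATP sulfurylase that catalyses the first step, read 153.6, 82.8 and 90.8 after JA, against 35.8, 46.3 and 42.9 untreated, a change of 1.08 (limma adjusted p = 0.00098). It was the only 1 of 4 tested members called, where 2.22% of all tested probe sets were. APS4, SIR and OASA2 differed by 0.09, 0.34 and 0.27.

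**Figure D2:**
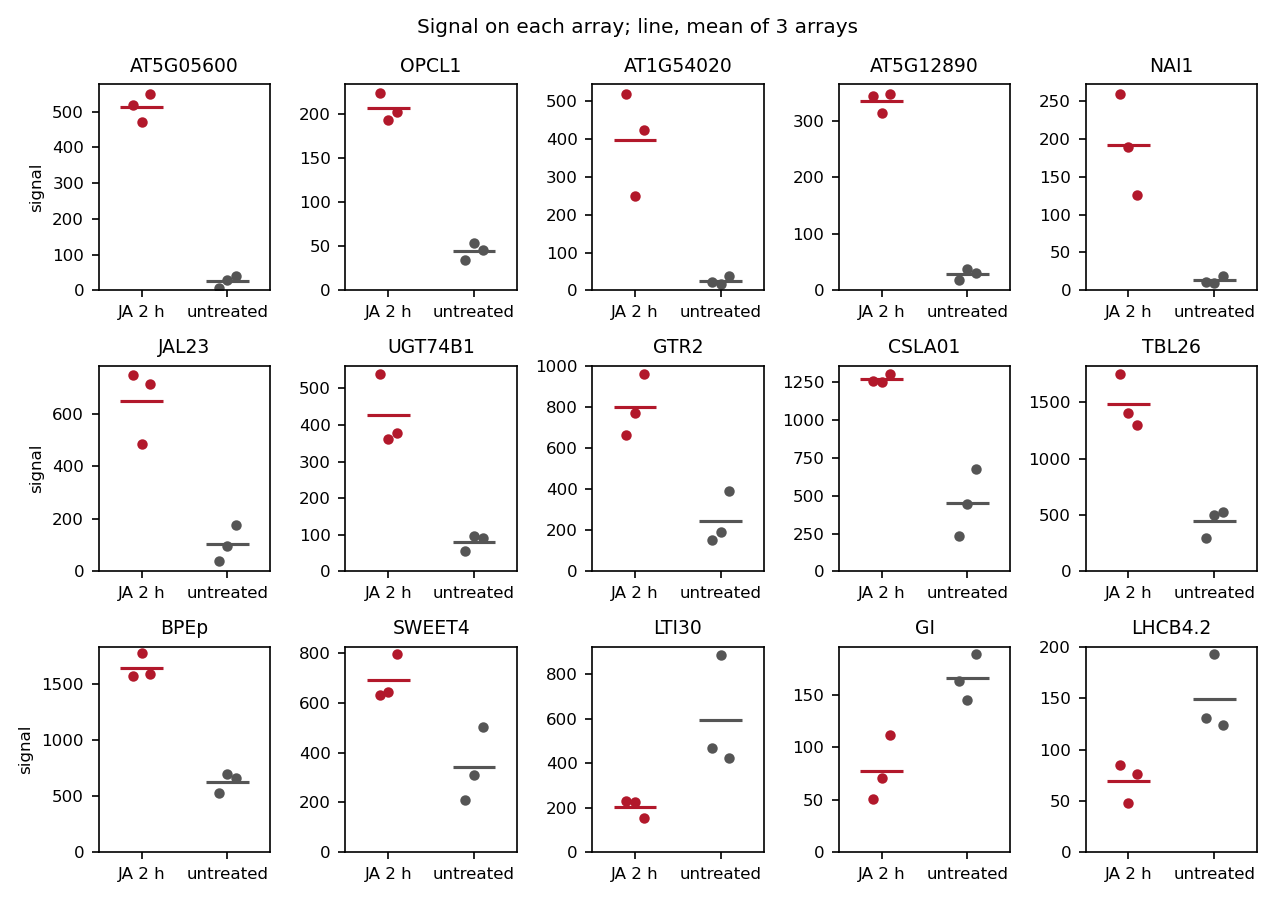
Signal on each array for 15 of the genes described, with the JA 2 h arrays at the left of each panel, the untreated arrays at the right and a line at the mean of 3 arrays. In all 15 panels the 3 JA 2 h arrays lie wholly above or wholly below the 3 untreated arrays. The largest rises and falls were named only where arrays did not overlap, so for these the separation was set by the choice. The last 3 panels, LTI30, GI and LHCB4.2, hold the lower JA values.

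Single enzymes that attach sugars or CoA to other molecules also rose, while most tested members of their families were not called. UDP-glycosyltransferases transfer a sugar to hormones and secondary metabolites. Of the 22 tested members, found by gene name alone, 4 were called higher and 0 lower. Of all tested probe sets, 2% were called higher and 0.228% lower. Beside UGT74B1, UGT76E12 (AT3G46660) read 61.7, 68.7 and 101.5 after JA, against 14.8, 6.6 and 13.6 untreated, a change of 1.74 (limma adjusted p = 5.2e-05). UGT87A2 (AT2G30140) averaged 275 ± 53.4 after JA, against 110 ± 21 untreated (SD, n = 3 each), a change of 1.21. UGT76E11 rose by 0.90 between dim levels of 53.1 ± 1.48 after JA and 21.1 ± 2.32 untreated. UGT78D1 and UGT73B1 differed by 1.07 and 0.89 but were not called (limma adjusted p = 0.12 and 0.14). The family's median change was 0.14. The neighbouring genes UGT76E11 and UGT76E12 are close relatives, and probes of one may read the other.

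In the family of 4-coumarate CoA ligases, to which OPCL1 belongs, 2 of 4 tested members were called higher (2% of all tested). The second was 4CL8 (AT5G38120), with 253.4, 247.0 and 304.8 after JA, against 53.2, 105.1 and 133.0 untreated, and a change of 1.40 (limma adjusted p = 0.00014). The others, AAE16 and AAE15, differed by 0.34 and -0.01.

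Among genes of the cell wall and of sugar transport, 1 or 2 members of each of several families were called. CSLA01 (AT4G16590), of the cellulose synthase-like group that makes mannans, read 1256.8, 1248.5 and 1306.4 after JA, against 237.1, 442.4 and 679.6 untreated. The JA arrays agree closely and the untreated arrays spread widely, and the change was 1.57 (limma adjusted p = 0.00021). Of the TRICHOME BIREFRINGENCE-LIKE family, whose members acetylate wall polysaccharides, TBL26 (AT4G01080) read 1755.4, 1402.3 and 1298.4 after JA, against 299.4, 502.9 and 529.5 untreated, a change of 1.74 (limma adjusted p = 2.3e-06). TBL37 rose by 0.90, and the family had 2 of 13 tested members called, with a median of 0.06. Among SWEET sugar transporters, SWEET4 (AT3G28007) read 632.4, 642.1 and 795.5 after JA, against 210.9, 310.7 and 503.1 untreated, a change of 1.06 (limma adjusted p = 0.017). SWEET2 rose by 0.67, and 2 of 15 tested members were called, with a median of 0.08. Single members were called higher among GH9 endoglucanases (GH9C2, by 0.77, 1 of 10), RALF signalling peptides (RALFL33, by 0.60, 1 of 7) and glutathione S-transferases (GSTU25, by 1.57, 1 of 7). In lists of this size and with 2% of all tested probe sets called higher, 1 call says little about a family. The calls of SWEET4 (limma adjusted p = 0.17), SWEET2 (limma adjusted p = 0.13) and GH9C2 (limma adjusted p = 0.31) were lost without untreated replicate 1, the lowest array for each of them. These 3 also lost their calls without some of the other arrays, and SWEET2 with scan day as a block (limma adjusted p = 0.064). The calls of TBL37, RALFL33 and UGT76E11 were lost without 1 array or another, and that of GSTU25 in a fit to these 2 groups alone. Expansins and xyloglucan enzymes (0 of 16), pollen genes (0 of 20), autophagy genes (0 of 11), tubulins (0 of 7) and housekeeping genes (0 of 12) had no member called by limma. With 2.22% of all tested probe sets called, these counts of 0 do not set the lists apart from the rest. Before adjustment, the limma p was under 0.05 for 4 of the expansins and xyloglucan enzymes, 1 of the pollen genes and 3 of the autophagy genes. It was so for 0 of the tubulins and housekeeping genes, and for 9.53% of all tested probe sets.

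**Figure D3:**
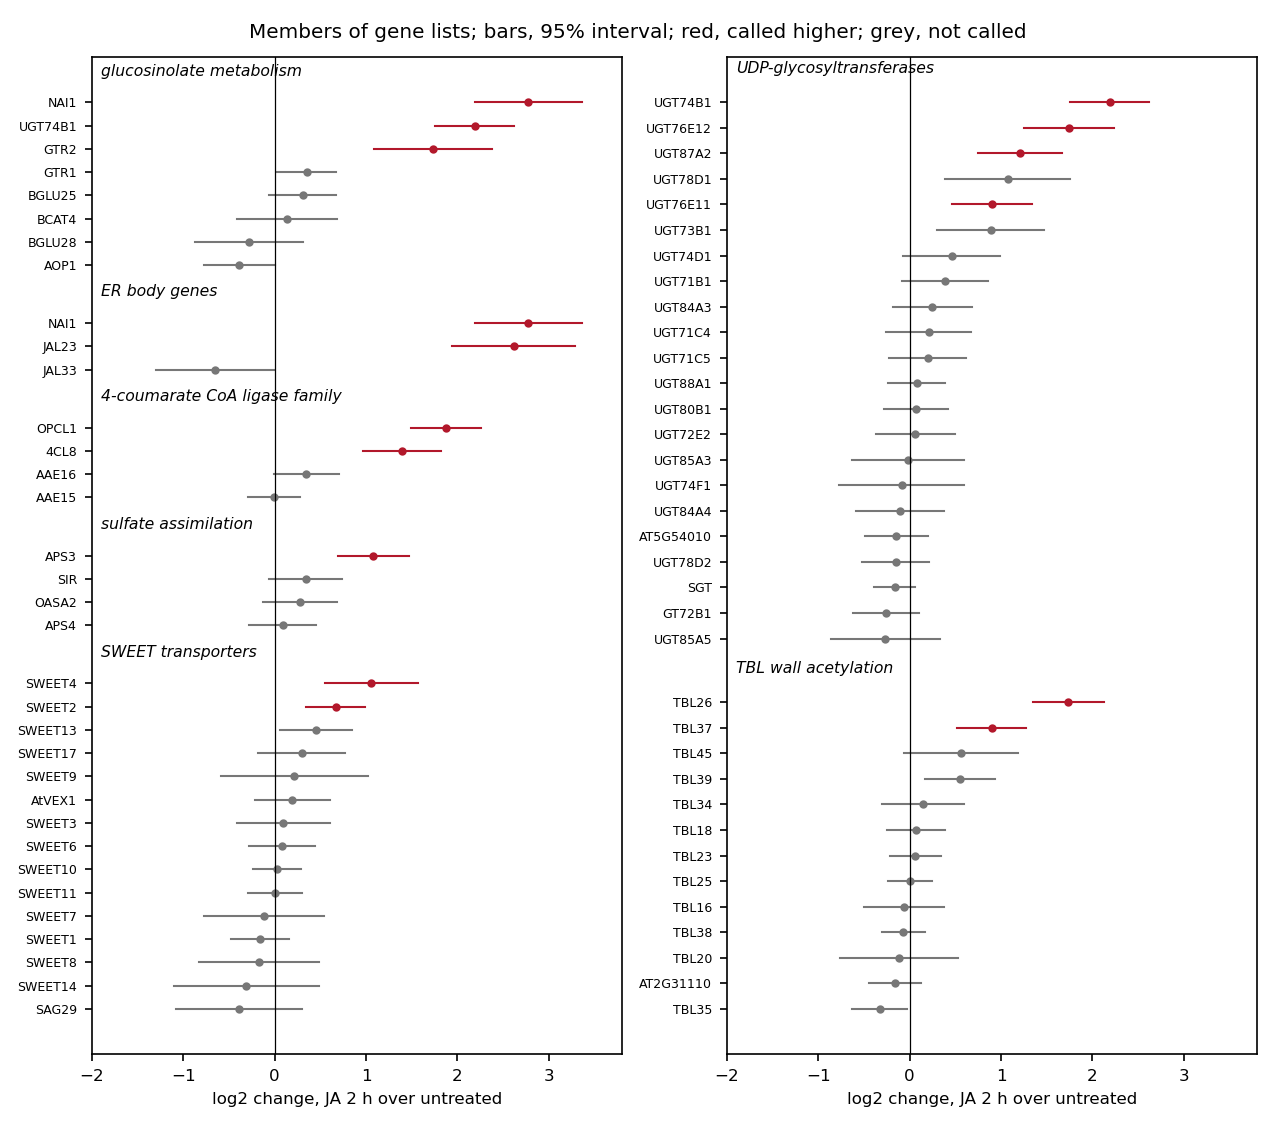
Log2 change, JA 2 h over untreated, of every tested member of 7 gene lists, with points for the fitted change and bars for its 95% interval. Red marks members called higher, and most members of the UDP-glycosyltransferase, TBL and SWEET families have intervals that include 0.

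Among called genes with a symbol outside the lists, chosen after their values were seen, were 2 regulators. BPEp (AT1G59640), a bHLH factor that limits petal growth, read 1576.3, 1776.9 and 1594.9 after JA, against 532.1, 698.5 and 668.5 untreated. No arrays overlapped, and it rose by 1.37 (limma adjusted p = 3.4e-06). GRX480 (AT1G28480), a glutaredoxin that binds TGA factors, read 87.7, 93.2 and 92.6 after JA, against 15.8, 12.8 and 13.7 untreated, a change of 1.83 (limma adjusted p = 0.0001). PUB43, a U-box protein, rose by 0.90 and RXF26 by 0.82. AT1G32920, which was taken with them but has a locus number and no symbol, rose by 1.45.

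Of the 16 largest rises taken by the naming rule, 12 have only a locus number in the annotation used. AT1G54020 read 518.2, 247.9 and 422.4 after JA, against 21.4, 16 and 36.8 untreated, a change of 3.31 (limma adjusted p = 0.00042). AT5G12890 read 344.6, 314.2 and 347.8 after JA, against 17.6, 37.1 and 31.5 untreated, a change of 3 (limma adjusted p = 5.4e-10). The JA 2 h arrays of AT1G54020 spread more than those of AT5G12890. AT2G32150 read 1032.8, 1174.5 and 1218.8 after JA, against 85.2, 155.8 and 200.9 untreated, a change of 2.89. AT1G61890 read 1431.4, 1249.2 and 1608.1 after JA, against 149.8, 211.5 and 204.5 untreated, a change of 2.83. All 3 JA arrays of these 4 loci were above all 3 untreated arrays, as the naming rule required. AT2G43530, AT5G02940 and AT5G49130 rose by 2.72, 2.5 and 2.25, AT3G51450 by 2, and AT1G52000, AT4G29700 and AT2G43550 by 1.95, 1.94 and 1.87. The calls of these 16 were kept in every other setting and with every left-out array in which they were tested. NAI1, AT1G52000, AT4G29700 and OPCL1 were not tested under the limit of 100 on the mean signal.

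Falls were fewer and smaller. The largest was LTI30 (AT3G50970), a dehydrin known for induction by cold, which read 231.2, 227.5 and 155.6 after JA, against 469.8, 887.9 and 423.5 untreated. The groups did not overlap, as the naming rule required, and the change was -1.41 (-2.07 to -0.74, limma adjusted p = 0.015). The call was lost without untreated replicate 2, the highest array (-1.09; limma adjusted p = 0.15), and without JA 2 h replicate 3, the lowest (limma adjusted p = 0.11). The other 10 tested late-embryogenesis and cold genes were not called, and the list's median was -0.11. Of all tested probe sets, 0.228% were called lower.

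GI (AT1G22770), the clock-associated protein GIGANTEA, read 50.8, 71.0 and 111.7 after JA, against 163.2, 144.9 and 189.2 untreated. It fell by 1 on the log2 scale (limma adjusted p = 0.0031). LHCB4.2 (AT3G08940), an antenna protein of photosystem II, read 84.9, 48.5 and 76.3 after JA, against 131.2, 193.1 and 123.6 untreated, and fell by 0.95 (limma adjusted p = 0.0032). It was the 1 of 9 tested nuclear photosynthesis genes called, where 0.228% of all tested probe sets were called lower. Its near relative LHCB4.3 averaged 568 ± 16.1 after JA, against 557 ± 68.6 untreated, a difference of 0.04. In a fit to these 2 groups alone GI and LHCB4.2 lost their calls (limma adjusted p = 0.063 and 0.065).

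The other 7 named falls have locus numbers only and lie between -0.73 and -0.57. AT5G49990 averaged 68.9 ± 5.01 after JA, against 125 ± 11.4 untreated, and AT5G35970 averaged 160 ± 12.8 after JA, against 245 ± 29.4 untreated (SD, n = 3 each). AT4G28240, AT1G06760, AT1G72030, AT1G66890 and AT1G54770 fell by 0.67, 0.64, 0.63, 0.62 and 0.62. Each of the 7 lost its call without at least 1 array. AT1G72030 lost it in 14 of 20 settings, other scalings and both blocks by record (scan day and chip lot) among them. AT1G54770 lost it with chip lot as a block (limma adjusted p = 0.0503), and AT4G28240 and AT5G35970 with each array centred on its median (limma adjusted p = 0.077 and 0.064). The number of falls moved more with the arrays than that of the rises: 12 to 30 falls were called when each array was left out in turn, with 12 without JA 2 h replicate 2, 14 without untreated replicate 2 and 21 without JA 2 h replicate 1, and 7 in a fit to these 2 groups alone. The rises numbered 206 to 312 with each array left out.

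Scan days were compared because they cut across the groups. JA 2 h replicate 2 shared a scan day with untreated replicates 1 and 2, and JA 2 h replicate 3 with untreated replicate 3, while JA 2 h replicate 1 was scanned on a day with no untreated array. Within each of these 2 shared days, 280 of 280 rises and 32 of 32 falls kept their sign, as a description of probe sets chosen on the same arrays. For AT5G05600 the within-day changes were 3.96 and 3.33, for NAI1 2.94 and 2.03, and for LTI30 -1.44 and -1.36. LHCB4.2 fell by 1.44 on one day and by 0.60 on the other. With scan day as a block, in a fit that leaves out the 1 OPDA 8 h array with no scan record here, 311 were called higher and 56 lower.

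The next question was how the 2 h level compares with the level shortly after treatment, at 0.5 h. This comparison and those with JA 8 h and OPDA 2 h below use the JA 2 h arrays again. Genes were named on these arrays, which favours a difference at 2 h, so values are given side by side. Between JA 2 h and JA 0.5 h, 163 probe sets were called, 1.16% of those tested, 143 higher and 20 lower at 2 h. The count was 69 without JA 0.5 h replicate 1 and 82 without its replicate 3, each of which leaves 1 array at 0.5 h. JA at 0.5 h holds 2 distinct arrays, since its replicates 1 and 2 are identical in every value and were counted once, as replicate 1. Their run records give different scan days, so which array the values belong to is not known. NAI1 had 26.2 and 20.2 at 0.5 h, and the 2 h level was higher by 2.35 (limma adjusted p = 0.00017). UGT76E12 had 2.8 and 1.8 at 0.5 h and was higher at 2 h by 2.33 (limma adjusted p = 2.2e-05). OPCL1 stood at 252.6 and 146.2 at 0.5 h, and its 2 h level differed from that by 0.09, with an interval of -0.34 to 0.52. AT5G05600 was already at 169.4 and 125.6 at 0.5 h and still higher at 2 h, by 1.70 (limma adjusted p = 0.0033).

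Between JA 8 h and JA 2 h, 733 probe sets were called, 5.23% of those tested, 304 higher and 429 lower at 8 h. The count was 396 without JA 8 h replicate 2 and 440 without JA 2 h replicate 1. NAI1 was at 31.9, 24.8 and 15.9 at 8 h, lower than at 2 h by 2.33 on the log2 scale (limma adjusted p = 1.2e-05), and it read 12.0 or less on each array at 22 h. UGT74B1 was lower at 8 h by 1.31 (limma adjusted p = 0.00027), with 188.8, 135.8 and 157.9. OPCL1 was also lower at 8 h, with a change of -0.82 (limma adjusted p = 0.0075). These 3 genes have their highest mean of the JA series at 2 h, though that of OPCL1 (206.4) is near its 0.5 h mean (199.4). AT5G12890 rose further, by 0.75 (limma adjusted p = 0.02), and read 649.2, 509.6 and 570.3 at 8 h. BPEp read 2221.5, 2738.1 and 2064.8 at 8 h, a difference of 0.49 that was not called (limma adjusted p = 0.065). The falls also differed among themselves in what followed. LTI30 read 25.1, 27.1 and 20.4 at 8 h, a further change of -2.44 (limma adjusted p = 3.2e-05). LHCB4.2 read 129.4, 118.6 and 125.5 at 8 h, higher than at 2 h by 0.73 (limma adjusted p = 0.018).

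**Figure D4:**
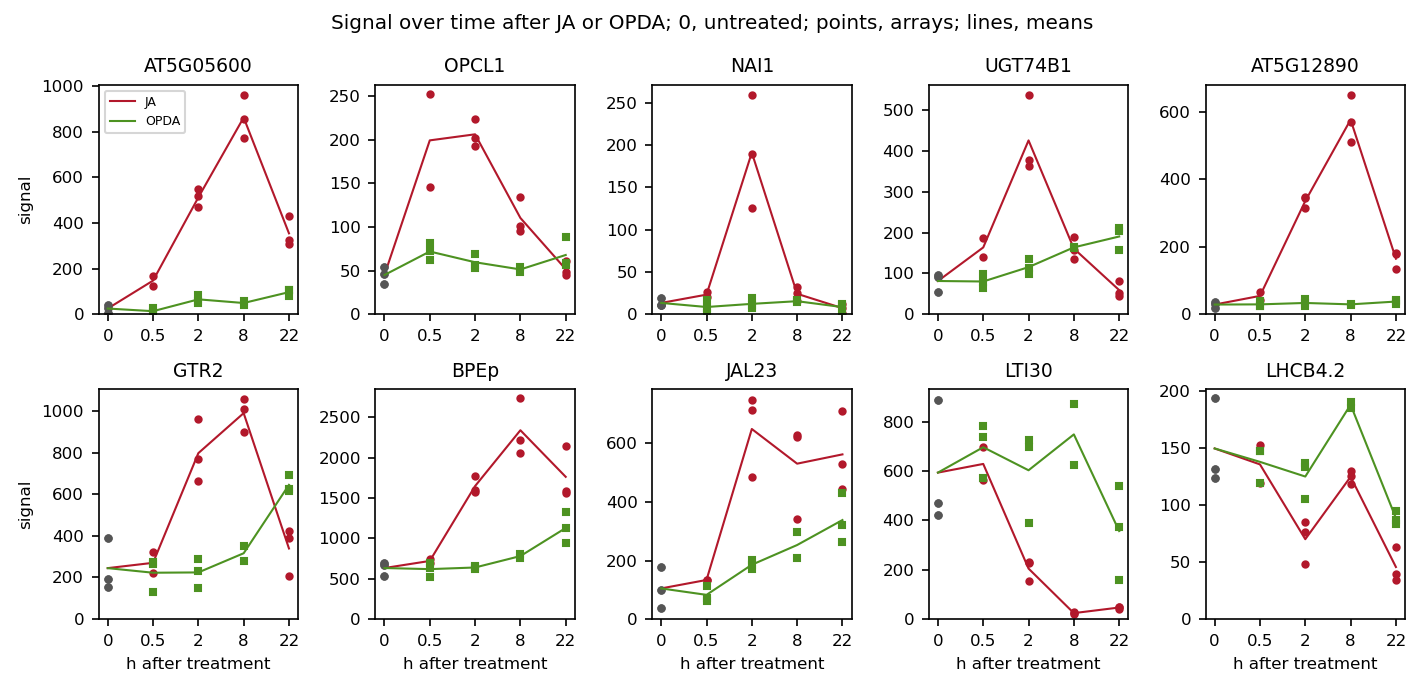
Signal of 10 genes in untreated stamens (0) and at 0.5, 2, 8 and 22 h after JA (red circles) or OPDA (green squares), with points for arrays and lines for means; the times are evenly spaced on the axis. OPCL1, NAI1 and UGT74B1 have their highest JA mean at 2 h, that of OPCL1 being near its 0.5 h mean. AT5G05600, AT5G12890, GTR2 and BPEp have it at 8 h, and LTI30 drops to under 30 on all 3 JA arrays at 8 h.

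OPDA, the precursor that the reductase missing in *opr3* acts on, was given at the same dose. JA 2 h arrays were set against OPDA 2 h arrays. In this comparison 266 probe sets were called, 1.9% of those tested, 221 higher and 45 lower after JA. AT5G05600 read 59.8, 50.3 and 85.9 after OPDA, and JA 2 h arrays were higher by 2.72 (limma adjusted p = 1.35e-06). NAI1 read 19, 7.2 and 10.7 after OPDA and was higher after JA by 2.84 (limma adjusted p = 1.3e-06). LTI30 read 725.6, 388.3 and 695.7 after OPDA and was lower after JA, with a change of -1.46 (limma adjusted p = 0.014). Some of the named rises were not called between the treatments. AT1G52000 read 119.0, 116.2 and 82.0 after OPDA, near its JA values of 131.7, 111.7 and 147.1, with a difference of 0.27 and an interval of -0.35 to 0.90. SWEET4 was at 632.4 or more on JA 2 h arrays, against 594.6 or less on OPDA 2 h arrays, a difference of 0.56 with an interval of 0.05 to 1.07 (limma adjusted p = 0.42). AT4G29700 was at 124.7 or more on JA 2 h arrays, against 78.9 or less on OPDA 2 h arrays, a difference of 1.11 with an interval of 0.47 to 1.75 (limma adjusted p = 0.073). The arrays of both genes lie apart, and both differences missed the threshold.

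Arrays that the main comparison does not hold gave a separate reading of the same probe sets. JA was set against OPDA at 0.5, 8 and 22 h, with 2 distinct arrays for JA at 0.5 h and for OPDA at 8 h, with no array shared with JA 2 h or untreated, though the estimate of the spread is common to the whole fit. At 8 h, 3.71% of all tested probe sets were called higher after JA, and 116 of the 280 rises (41.4%) were among them, while 2 of the 280 were called lower. Of the 32 falls at 2 h, 11 were called lower at 8 h (34.4%), against 4.11% of all tested, and 0 higher. Without OPDA 8 h replicate 1, 73 of the 280 were called higher. At 0.5 h just 10 probe sets were called higher after JA (0.0713%), and 10 of the 280 rises were among these, AT5G05600 and OPCL1 included. Without JA 0.5 h replicate 1, 5 of the 280 were called, and 2 in a fit to the groups compared.

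At 22 h the pattern was mixed. Of the 280 rises, 61 were called higher after JA than after OPDA (21.8%) and 50 lower (17.9%), where 6.5% of all tested probe sets were called higher and 12.2% lower. UGT74B1 and GTR2 were on the low side, with changes of -1.48 (limma adjusted p = 1.5e-05) and -0.96 (limma adjusted p = 0.034), and AT5G49130 and AT5G12890 on the high side, with 1.9 and 1.75. Of the 32 falls, 16 were called lower (50%) and 1 higher. LTI30 was called lower after JA at both late times, with changes of -4.23 at 8 h and -2.42 at 22 h. These comparisons at 0.5, 8 and 22 h were chosen after the data were seen.

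**Figure D5:**
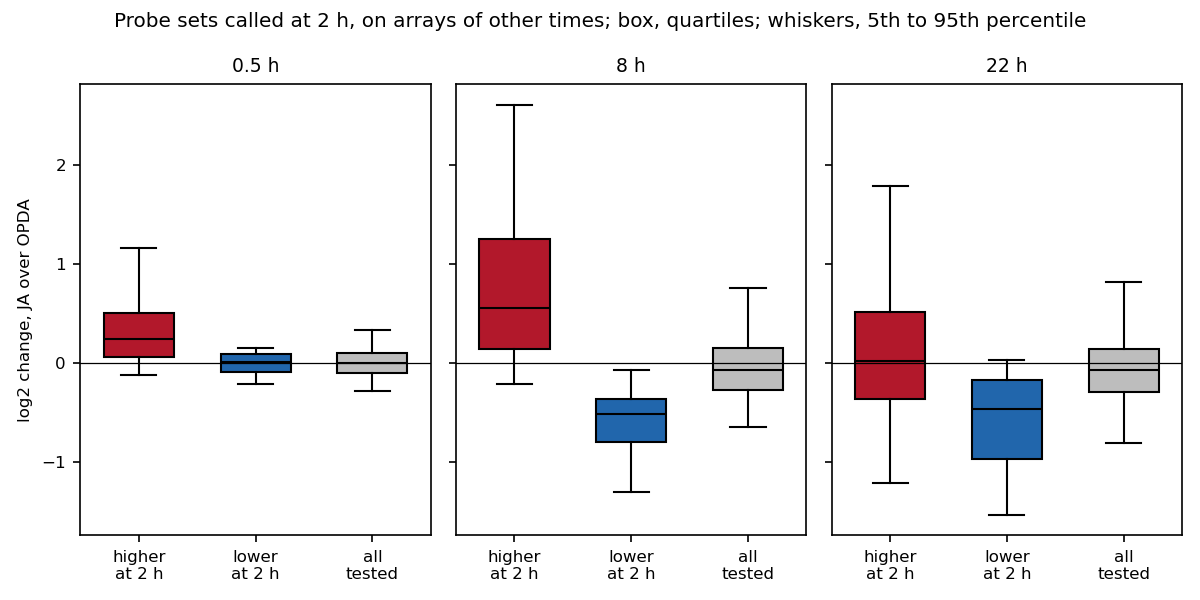
Log2 change, JA over OPDA, at 0.5, 8 and 22 h for the 280 probe sets called higher at 2 h (red), the 32 called lower (blue) and all 14028 tested (grey), with boxes at the quartiles and whiskers at the 5th and 95th percentiles. The median of the rises is 0.24 at 0.5 h, 0.55 at 8 h and 0.02 at 22 h, and that of the falls is 0.01, -0.52 and -0.47.

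By median level, on the log2(signal + 16) scale, the 280 rises stood at 6.98 untreated, 7.39 at 0.5 h, 8.33 at 2 h, 8.11 at 8 h and 7.53 at 22 h after JA. Since they were chosen for their 2 h level, this series is a description. The 32 falls stood at 7.28 untreated and at 7.10, 6.53, 6.57 and 6.49 at the 4 times.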

How the data were processed

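RNA of stamens was hybridised to 1-colour ATH1 arrays, 1 per sample, with 10 µg of total RNA each. The authors deposited MAS5 signal intensities per probe set on a linear scale, made with global scaling to 125 per the labels and the submitters' processing notes. Detection calls and the software version were not used here. Members and gene lists were chosen with earlier results of these data known. Signals were taken as log2(signal + 16), and 14028 of 22810 probe sets, those reaching 50 on 2 or more arrays, entered 1 limma 3.58.1 fit in R 4.3.3 (lmFit, contrasts, eBayes with trend), with 25 arrays in 9 groups and 16 residual degrees of freedom. JA 0.5 h replicates 1 and 2 hold identical values and entered once, with the number and run record of replicate 1. Tests were two-sided, with Benjamini-Hochberg adjustment within each comparison. The number of arrays limits the precision.

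Of the probe sets, 13513 were paired with 1 gene by the platform's annotation, 503 with several and 8794 with none, and 13436 matched RefSeq (TAIR10.1), used for names only. Named genes were, among called probe sets with 1 gene, arrays that do not overlap and 100 or more as the higher mean, the 16 largest rises and 10 largest falls, plus called list members, up to 4 a list. A gene with several probe sets was given by the brightest. Of 55 lists, and 4 added after values were seen, 28 had at least 3 tested members. Lists were filled by gene symbol or synonym, so family members with no such name in the annotation stand outside them. The fit was tested on simulated data. Same-numbered JA 2 h and untreated arrays had deviations correlated at 0.11, 0.05 and 0.31. The main fit did not take the numbers as pairs, and a block by replicate number is given below as another setting. A planned search of promoters for motifs was not run.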

Additional observations from a re-analysis of the deposited data

Results flagged for a closer look

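The following genes differed between time points by a direct test in the limma fit, each at an adjusted p under 0.05. They were named for their change on the JA 2 h arrays, which these comparisons use again. That choice favours a difference at 2 h, so the values are a description. Between JA 2 h and JA 0.5 h, higher at 2 h, AT1G54020 differed by 2.5, NAI1 by 2.35, AT5G12890 by 2.34, UGT76E12 by 2.33, JAL23 by 2.13 and AT2G32150 by 1.85. AT5G05600 differed by 1.70, AT5G49130 by 1.68, AT5G02940 by 1.65, AT2G43530 by 1.54, GTR2 by 1.51, AT4G29700 by 1.46 and AT1G61890 by 1.38. CSLA01 differed by 1.36, UGT87A2 by 1.31, UGT74B1 by 1.29, AT2G43550 by 1.15, AT3G51450 by 1.13, GH9C2 by 1.11 and TBL26 by 1.09. Lower at 2 h than at 0.5 h were LTI30 (-1.56), GI (-0.98), LHCB4.2 (-0.83) and AT5G35970 (-0.68).

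Between JA 8 h and JA 2 h, AT5G12890 (0.75) and LHCB4.2 (0.73) were higher at 8 h. Lower at 8 h were LTI30 (-2.44), NAI1 (-2.33), UGT74B1 (-1.31), AT2G43530 (-1.22), AT1G61890 (-1.01), AT3G51450 (-0.98) and OPCL1 (-0.82). UGT87A2 (-0.76), APS3 (-0.69), AT5G02940 (-0.67), TBL26 (-0.65) and SWEET2 (-0.54) were also lower at 8 h.

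The single Ws array, which entered no test, held signals above every untreated *opr3* array for several of the largest rises. It read 446.3 for AT5G05600, 306.5 for AT1G54020, 172.2 for AT5G12890 and 618.0 for AT2G32150. It read 485.0 for JAL23, 453.2 for AT5G49130 and 120.4 for AT4G29700. Other named rises, such as OPCL1 (72.6), were also above. AT2G43550 and AT3G51450 were not, at 604.1 and 60.8 on the Ws array, against up to 669.9 and 79.8 on untreated arrays. The share of all tested probe sets above every untreated array was not counted. With 1 array these differences have no replicate check.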

How the results depend on the processing

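Other pseudocounts, filters, scalings, median centring (added after the data were seen) and a chip lot block kept the counts of calls within 1.5 times. Other settings moved some. For falls at 2 h, the fit to these 2 groups alone gave 7, the replicate block 76, the scan day block 56 and array weights 90, and a change of at least 2-fold left 6 falls and 177 rises. The replicate block gave 250 calls for JA 2 h over JA 0.5 h, 466 for JA 2 h over OPDA 2 h and 1272 for JA 8 h over JA 2 h. Array weights gave 271 for JA 2 h over JA 0.5 h. A 2-fold limit left 141 for JA 2 h over OPDA 2 h and 300 for JA 8 h over JA 2 h. Of the 280 rises, those called higher after JA than OPDA at 0.5 h numbered 2 in the fit to those groups alone and 18 with array weights, and 38 at 22 h with a 2-fold limit. The cause of these moves was not tested.

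With each array left out, rises at 2 h numbered 206 to 312 and falls 12 to 30. JA 2 h over JA 0.5 h gave 69 to 128, lowest without JA 0.5 h replicate 1 and with 82 without its replicate 3. JA 2 h over OPDA 2 h gave 183 to 246. JA 8 h over JA 2 h gave 396 to 731, lowest without JA 8 h replicate 2 and with 440 without JA 2 h replicate 1. The rises called higher over OPDA numbered 5 to 12 at 0.5 h, 73 to 108 at 8 h and 53 to 58 at 22 h. Where this leaves 1 array in a group (JA 0.5 h or OPDA 8 h), that array is assumed to vary like the other groups. Fits with a scan day or chip lot block leave out the OPDA 8 h array with no record. No named change turned its sign in these settings. Apart from the 2-fold limit, the 16 named rises kept their calls in each setting in which they were tested, as did 7 of 14 list members and 5 of 5 added genes, while 10 of 10 named falls lost theirs in at least 1 setting.

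The arrays' run records name set 1 for most arrays of replicate 1 and set 2 for most of replicate 2, with no set for replicate 3, and do not say what a set is. JA 2 h and untreated arrays of set 1 were scanned on different days. Deviations from the group mean of same-numbered JA 2 h and untreated arrays correlated at 0.11, 0.05 and 0.31 for replicates 1, 2 and 3. JA 2 h replicate 3 correlated at -0.18 and -0.22 with untreated replicates 1 and 2. Untreated replicate 3 correlated at -0.22 and -0.10 with JA 2 h replicates 1 and 2. Both replicate 3 arrays share a scan day and a chip lot. JA 2 h replicate 1 deviated more with untreated replicate 2 (0.18) than with replicate 1 (0.11). What the numbers share was not tested. With the replicate block, 381 rises and 76 falls were called. Dim probe sets limit the size of a change, since 68 rises start under a signal of 50.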
